A study of Mus musculus with 6 samples.

Results

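The miRNAs described here are 10 mature forms cut from 6 hairpins that sit in introns of protein-coding genes, namely miR-744-5p, both arms of miR-574, miR-140, miR-151 and miR-28a, and miR-186-5p. They are 10 of the 620 rows of the deposited table and were picked by name, after miR-574-5p and miR-140-3p had been seen to have separated groups and because the series title names miR-744-5p. Those 3 contrasts between the groups are therefore given as a description, with no test. The study sequenced small RNA of extracellular vesicles, which cells shed, from mouse PBMCs (peripheral blood mononuclear cells, mainly lymphocytes and monocytes). All 6 libraries are labelled wild type (WT), with 3 libraries from untreated cells (control) and 3 labelled as stimulated with IS, which the labels do not spell out. Salvianolic acid B, the compound of the title, is the labelled treatment of 0 of the 6 libraries. Age, strain, dose and time are not stated for either group, and whether the replicates were separate animals or cultures is also not stated, so p-values measure only library-to-library spread, possibly technical.

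An intronic miRNA is made from the RNA of its host gene, although some have a promoter of their own. The transcript folds into a hairpin, the enzymes Drosha and Dicer cut it into a 5p and a 3p arm, and an Argonaute protein usually keeps one arm, whose seed (bases 2 to 8) pairs with target transcripts, while the other arm is degraded. Blood cells release such miRNAs in vesicles, and the arms kept in the vesicles can be counted separately.

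Of the 10 members, 7 had a mature sequence in RefSeq (GRCm38.p6). The following are shown because the groups or the libraries differed most in them or because they fill most of the members' counts, with the seed in capitals.
miR-744-5p: uGCGGGGCuagggcuaacagca
miR-574-5p: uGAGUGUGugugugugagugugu
miR-140-3p: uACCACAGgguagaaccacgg
miR-186-5p: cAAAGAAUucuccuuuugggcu
The 4 seeds differ from each other. For miR-744-5p, miR-574-5p and miR-186-5p, 0 other mature miRNAs of the RefSeq table had the same seed. That of miR-140-3p is shared with miR-497b, which has no row in the deposited table. In miR-574-5p, 18 of the overlapping pairs of neighbouring bases read GU or UG. The less counted partner arms of the first and the second hairpin and both arms of miR-28a are shown for the comparison of arms.
miR-744-3p: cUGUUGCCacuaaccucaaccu
miR-574-3p: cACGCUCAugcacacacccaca
miR-28a-5p: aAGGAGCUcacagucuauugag
miR-28a-3p: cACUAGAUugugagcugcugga
The seed of miR-28a-5p is shared with miR-708-5p, which also has no row in the table. The 2 hairpins behind the differences described first read as follows, with both mature arms in capitals.
Mir744: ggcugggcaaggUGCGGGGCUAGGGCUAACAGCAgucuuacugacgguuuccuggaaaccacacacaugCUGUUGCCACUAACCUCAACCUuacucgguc
Mir574: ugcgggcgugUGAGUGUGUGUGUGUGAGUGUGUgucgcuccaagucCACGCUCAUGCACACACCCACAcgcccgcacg

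Each of the 6 hairpins lay inside its host gene on the host's strand in the GENCODE M21 annotation of GRCm38, a build that need not be the authors'. Mir744 lies on chromosome 11 (65734733 to 65734832, minus strand) in intron 3 of 10 of Map2k4, which encodes a kinase of the stress-activated JNK pathway. Mir574 lies on chromosome 5 (64970318 to 64970395, plus strand) in intron 1 of 13 of Fam114a1, 173 bases after the upstream exon. Mir140 lies on chromosome 8 (107551244 to 107551313, plus strand) in intron 16 of 23 of Wwp2, a ubiquitin ligase gene, and miR-140 is known for its role in cartilage. In 1 of the annotated Wwp2 transcripts, a retained-intron form, the hairpin falls in an exon. Mir151 lies on chromosome 15 (73254815 to 73254882, minus strand) in intron 22 of 31 of Ptk2, the gene of focal adhesion kinase. Mir28a lies on chromosome 16 (24827855 to 24827940, plus strand) in an intron of 82814 bases of Lpp, which encodes a protein of cell adhesions. Mir186 lies on chromosome 3 (157544279 to 157544349, plus strand) in an intron of 1719 bases of Zranb2, the gene of a splicing regulator. Intron numbers are those of a principal transcript.

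The libraries held 125731 to 435468 counts, and a single count (1) equalled 2.30 to 7.95 CPM (counts per 1000000 of the library total). The leukocyte marker miRNAs, 7 of 7 with a row and 0 of them at 0 in every library, summed to 0.706 to 2.31% of the counts in control and 0.911 to 2.74% in IS. The red cell markers (4 of 4 with a row) held 9.34 to 18.7% and 12.1 to 22.3%, and the liver marker miR-122-5p 2.35 to 11.3% and 3.18 to 10.7%. In these vesicles labelled as from PBMCs, the listed red cell and liver marker miRNAs thus each held more reads than the leukocyte markers. The lists differ in length and in the abundance of their miRNAs, and the cells of origin of the reads were not tested. Muscle markers (3 of 3) held at most 0.219% in control and 0.470% in IS. In bulk vesicles, fewer particles from a cell type and less of a miRNA per particle cannot be told apart.

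The members took 1.06 to 1.56% of the counts of a library, and their levels spanned 3 tiers. All levels below are CPM, in which no length enters, and the mature forms with a sequence are 21 to 23 bases long. The first tier held miR-140-3p, miR-186-5p and miR-151-3p, which together made up 84.4% of the members' counts in control 2 and 95.9 to 97.3% in the other libraries. miR-140-3p alone made up 51.0 to 69.0% and ranked 15th to 24th among all miRNAs of a library. The order of miR-186-5p and miR-151-3p below it was not fixed, as miR-151-3p was the higher in control 2 and IS 1 and miR-186-5p in the other libraries. The second tier held miR-744-5p, miR-574-5p and miR-140-5p, with 51.0 to 223 CPM apart from miR-744-5p in control 2. The last tier held miR-574-3p, miR-151-5p, miR-28a-5p and miR-28a-3p, which had 18 to 45 counts over all 6 libraries and lay at most 66.6 CPM. The filter on low counts kept 6 of the 10 members and left out these 4.

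**Figure D1:**
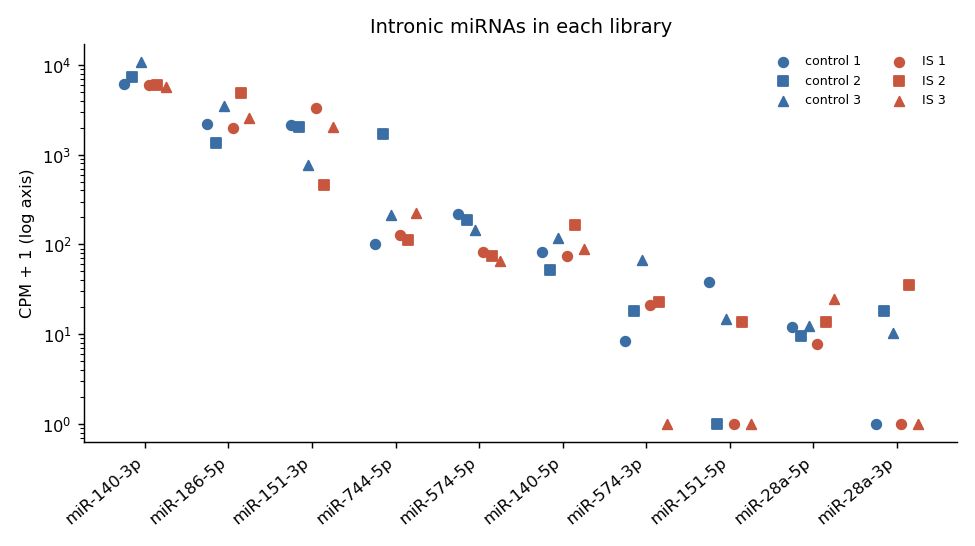
CPM + 1 on a log axis for the 10 intronic miRNAs in each of the 6 libraries, with control in blue, IS in red and libraries 1, 2 and 3 as circle, square and triangle; a value of 1 on the axis is a count of 0. miR-744-5p in control 2 (1696 CPM) stands apart from its 5 other values, and miR-151-5p and miR-28a-3p are at 0 in 3 libraries each.

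Of the 3 tested members that were not picked on the contrast of IS with control, miR-140-5p, miR-151-3p and miR-186-5p, 0 had an adjusted p under 0.05 (edgeR quasi-likelihood test, Benjamini-Hochberg adjustment over all tested miRNAs). The same held for 0 of all 206 tested miRNAs (0%), while 3 of the 206 (1.46%) had an unadjusted p under 0.05. With repeated rows left out it was 2 of 192, as miR-1b-5p has the counts of miR-1a-3p. The 3 of the 206 include miR-744-5p, whose difference lay in 1 library and is only described below. DESeq2 and limma also passed 0 of the miRNAs they tested, with 14 and 3 at an unadjusted p under 0.05. The median log2 fold change over all 206 was 0.02.

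The difference of miR-744-5p lay in 1 library. Control 1, 2 and 3 read 99.9, 1696 and 209 CPM, from 27, 399 and 91 counts. IS 1, 2 and 3 read 127.3, 110.3 and 223 CPM, from 19, 35 and 28 counts. Control 2 was far above every other library, and the other 2 control values lay within or just below the range of IS, so the groups overlapped. Group means were 668 ± 892 CPM for control against 153 ± 60.6 CPM for IS (SD, n = 3 per group). The 95% Poisson interval of control 2 was 1534 to 1871 CPM, while the highest upper bound elsewhere was 322 CPM (IS 3), so counting error does not span the gap between them (such intervals cover counting error only, as the reads carry no molecular identifiers). Control 2 was 7.62 times the next library, and this ratio of highest to second library was the largest among the 206 tested miRNAs. The fitted log2 fold change was -2.06 (SE 0.93), and dropping control 2 left -0.31 with refitted scaling or -0.036 with the scaling kept. Its partner arm miR-744-3p had 2 counts in each of control 3 and IS 3 and 0 elsewhere. In control 2, 0 of 399 counts of the hairpin were of the 3p arm, which allows a share of up to 0.752%, so the high reading was of the 5p arm.

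The 3 tested miRNAs nearest in pattern to miR-744-5p were found by the root mean square difference of centred log2(CPM + 1) over the 6 libraries, a measure in which control 2 weighs heavily, so a high value there was built into the choice. These were miR-139-3p (0.62), miR-222-3p (0.64) and miR-146b-5p (0.80), where the median over the tested miRNAs was 1.54. Their values in control 2 were 310.3, 4111 and 2317 CPM, against at most 103, 1607 and 1400 CPM in the other libraries. Control 2 was the highest library of 43 of the 206 miRNAs (20.9%), and of 2 of these, miR-744-5p and miR-139-3p, by more than 3-fold over the next. Control 2 was the highest library for 0 of the 6 marker lists, and its leukocyte and red cell shares (0.706 and 9.34%) were the lowest of the 6 libraries.

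**Figure D2:**
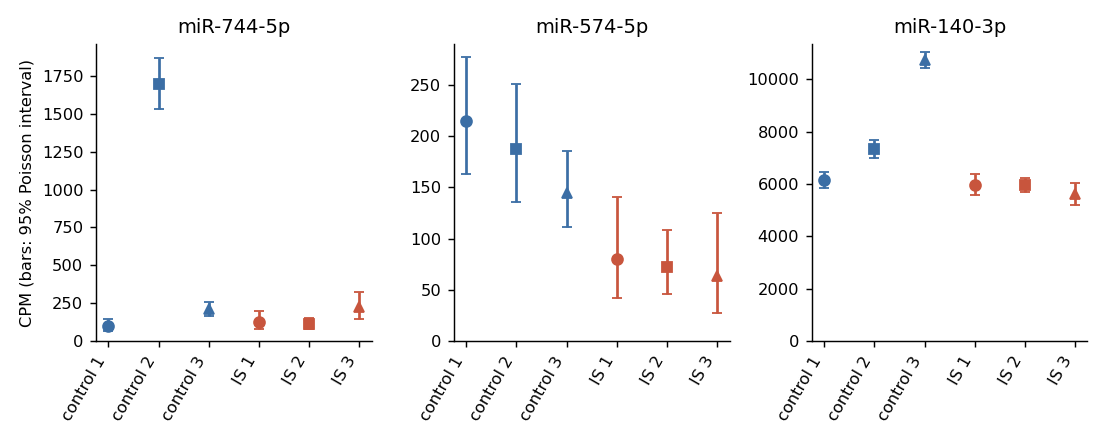
CPM of miR-744-5p, miR-574-5p and miR-140-3p in each library, on linear axes that differ between panels; points are single libraries and bars are 95% Poisson intervals of the count. miR-744-5p is high in control 2 only, whereas all 3 IS values of the other two lie below all 3 control values.

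miR-574-5p, with its run of GU repeats, was lower in every IS library than in every control library, which is the pattern it was picked for. Control 1, 2 and 3 had 215, 187 and 145 CPM, from 58, 44 and 63 counts. IS 1, 2 and 3 had 80.4, 72.5 and 63.6 CPM, from 12, 23 and 8 counts. The lowest control value was 1.8 times the highest IS value. Counting error spans that step, as the interval of control 3 was 111 to 185 CPM and that of IS 1 was 41.6 to 140 CPM. The group means were 182 ± 35.2 and 72.2 ± 8.40 CPM (SD, n = 3 per group), and the log2 fold change was -1.31 (SE 0.74), or -1.52 to -1.01 with any 1 library left out and the scaling kept. With library sizes scaled by TMM (trimmed mean of M-values, which sets the bulk of the miRNAs level) the groups still did not overlap, at 129 CPM in the lowest control library and 96.1 CPM in the highest IS library.

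miR-140-3p, the most counted member, was the other one picked for separated groups. It stood at 6137, 7320 and 10740 CPM in control 1, 2 and 3 and at 5972, 5947 and 5615 CPM in IS 1, 2 and 3. The 3 IS libraries were close together (SD 199 about a mean of 5845 CPM, n = 3), and control spread more widely (8066 ± 2390 CPM, n = 3), mainly through control 3. Control 1 exceeded IS 1 by a factor of only 1.03, and their Poisson intervals, 5845 to 6439 and 5586 to 6377 CPM, overlapped. On the TMM scale the order broke, with 6746 CPM in control 2 below 7138 CPM in IS 1. The log2 fold change was -0.40 (SE 0.45), and without control 3 it was -0.22, or -0.23 with the scaling kept.

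Separated groups were counted over all tested miRNAs. Of the 10 ways to split the libraries into 2 groups of 3, 1 sets the groups of a miRNA apart. Every IS library lay below every control library for 2 of the 206 tested miRNAs (0.971%), and these were miR-574-5p and miR-140-3p themselves, so nothing is read from their share. The reverse order held for 1 (0.485%), which was no member. On the TMM scale 7 were separated in either direction (3.4%), and 4 with IS lower (1.94%), miR-574-5p and 3 that are named only because the count is small and after their values had been seen, miR-24-3p, miR-3074-5p and miR-101a-3p. Of these, miR-3074-5p repeats the counts of miR-24-3p, so both names stand for 1 set of reads. miR-101a-3p was the nearest in pattern to miR-140-3p (root mean square difference 0.22), followed by miR-127-3p (0.23) and miR-1839-5p (0.26), where the median was 0.88. For miR-574-5p the nearest were let-7e-5p (0.54), miR-27a-3p and let-7b-5p (both 0.57), where the median was 1.12. A row level across all libraries would score 0.32 against miR-140-3p and 0.68 against miR-574-5p. The rows named were thus only modestly closer than a row with no pattern. No member repeated the counts of another row: 0 of the 12 rows found to repeat another row's counts involved one.

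The remaining 3 tested members had overlapping groups and varied widely between libraries. miR-186-5p, from the Zranb2 intron, stood at 2216, 1352 and 3497 CPM in control 1, 2 and 3 and at 1957, 4822 and 2561 CPM in IS 1, 2 and 3. It was highest in IS 2, then in control 3, and lowest in control 2. The means were 2355 ± 1080 and 3113 ± 1510 CPM (SD, n = 3 per group) and the log2 fold change was 0.44 (SE 0.55, adjusted p = 0.996, edgeR quasi-likelihood test), which was -0.13 without IS 2 (-0.080 with the scaling kept) and -0.078 without control 2 (0.14 with the scaling kept).

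miR-140-5p, the lesser arm from the Wwp2 intron, had the same 2 libraries on top and the same one at the bottom. Control 1, 2 and 3 had 81.4, 51.0 and 117.1 CPM, from 22, 12 and 51 counts. IS 1, 2 and 3 had 73.7, 163.9 and 87.5 CPM, from 11, 52 and 11 counts. Counting error spans part of this order. The 95% Poisson intervals of control 3 (87.2 to 154 CPM) and control 1 (51.0 to 123 CPM) overlapped. So did those of control 2 (26.4 to 89.1 CPM) and IS 1 (36.8 to 132 CPM). The groups overlapped, and the log2 fold change was 0.43 (SE 0.82, adjusted p = 0.996, edgeR quasi-likelihood test), which was -0.11 without IS 2 (-0.062 with the scaling kept) and -0.077 without control 2 (0.15 with the scaling kept).

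miR-151-3p, from the Ptk2 intron, had these libraries at the bottom instead. It stood at 2149, 2032 and 760.1 CPM in control 1, 2 and 3 and at 3311, 460.1 and 2020 CPM in IS 1, 2 and 3, a 7.20-fold range. The highest and the lowest value were both in IS. The log2 fold change was 0.25 (SE 0.74, adjusted p = 0.996, edgeR quasi-likelihood test), and its sign was not stable, at -0.81 without IS 1, 0.66 without IS 2 and -0.036 with limma on log2(TPM + 1).

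Control 3 and IS 2 were the pair of libraries high in miR-186-5p and miR-140-5p and low in miR-151-3p. For miR-140-5p part of that order lay within counting error. Both libraries also had the highest summed leukocyte and red cell markers and the lowest summed vessel wall markers. Leukocyte markers held 2.31 and 2.74% of their counts, against 0.706 to 1.17% in the other 4 libraries. Red cell markers held 18.7 and 22.3%, against 9.34 to 14.8%. Vessel wall markers (4 of 4 with a row) held 1.66 and 0.955%, against 2.15 to 3.54%. The sums rest mostly on abundant rows. This pair was highest in 4 of the 7 leukocyte markers, led by miR-142a-5p (20128 and 23909 CPM), and in 4 of 4 red cell markers, and lowest in 2 of 4 vessel wall markers, miR-126a-3p and miR-143-3p. The remaining marker lists did not share the pattern. There the pair was highest in 1 of 3 muscle, 0 of 6 epithelium and 0 of 1 liver markers, and lowest in 0 of them. The leukocyte marker miR-223-3p went the other way against some libraries, with 68.9 and 18.9 CPM in this pair beside 208 CPM in control 2 and 255 CPM in IS 3. This pair also had the most counts, 435468 in control 3 and 317323 in IS 2, against 125731 to 270335 in the other libraries. Depth and these cell type markers thus varied together. The part of either in the levels of the 3 miRNAs was not tested.

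**Figure D3:**
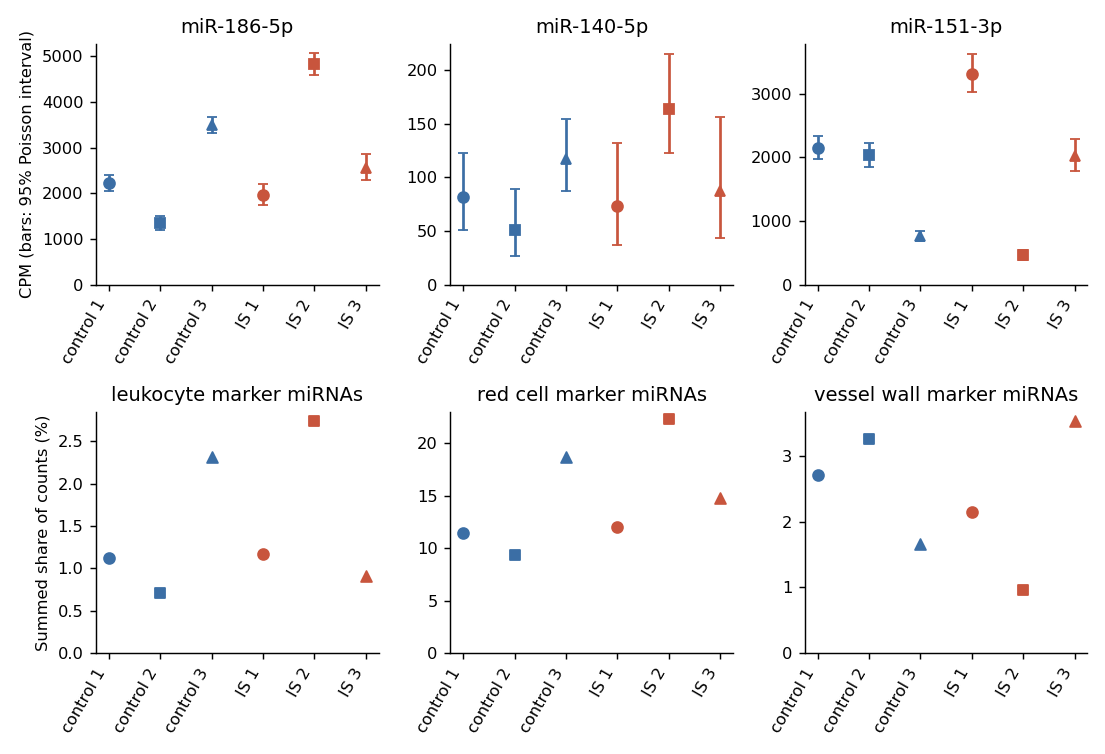
Top, CPM of miR-186-5p, miR-140-5p and miR-151-3p in each library with 95% Poisson intervals; bottom, the summed share of counts (%) of the leukocyte, red cell and vessel wall marker miRNAs in the same libraries. Control 3 and IS 2 are the highest pair in the first 2 columns and the lowest in the last. The sums rest mostly on the most abundant markers, and this pair also had the largest library totals.

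**Figure D4:**
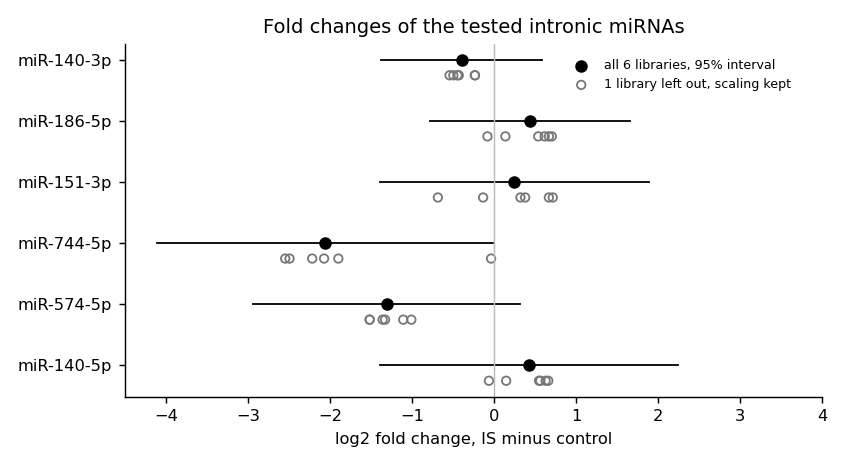
Log2 fold change, IS minus control, of the 6 tested members with its 95% interval (filled points and lines). Open points leave out each library in turn with the scaling kept. The contrasts of miR-744-5p, miR-574-5p and miR-140-3p are a description, so their intervals are not to be read as tests. The estimate of miR-744-5p moves from -2.06 to -0.036 without control 2, miR-574-5p stays between -1.52 and -1.01, and the open points of miR-186-5p, miR-140-5p and miR-151-3p lie on both sides of 0.

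Both arms were counted for 4 hairpins, and 3 of these had a clear major arm. Over the 6 libraries together, the 3p arm held 98.6% of the miR-140 counts (11542 against 159) and 99.1% of the miR-151 counts (2284 against 20), and the 5p arm held 82.2% of the miR-574 counts (208 against 45). For miR-28a the arms were level, with 19 counts of 3p and 18 of 5p (51.4% 3p, 95% exact binomial interval 34.4 to 68.1%). The partner arms outside the member list were rarer still, with 4 counts of miR-744-3p beside 599 of miR-744-5p and 2 of miR-186-3p beside 4584 of miR-186-5p. Within a library a plain ratio of arms does not depend on the library scaling. The log2 ratios below add 0.5 counts to each arm, so with an arm at 0 counts they depend on depth. With counts scaled to the smallest library total, the difference between IS and control moved from -0.87 to -1.12 for miR-151. For miR-28a it moved from 0.26 to 0.54.

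The miR-574 arms varied between libraries of 1 group. The 5p share was 96.7, 91.7 and 68.5% in control 1, 2 and 3 and 80.0, 76.7 and 100% in IS 1, 2 and 3. The exact 95% interval of control 1 (88.5 to 99.6%) lay above that of control 3 (58.0 to 77.8%), so these 2 controls differed by more than counting error. Control 3 held 29 of the 45 counts of miR-574-3p, at 66.6 CPM, where the other libraries had 0 to 7 counts. In IS 3 there were 0 counts of the 3p arm among 8, which allows a share of up to 37.5%. The mean log2 of 5p over 3p counts (with 0.5 added to each) was 2.99 ± 1.74 for control against 2.52 ± 1.36 for IS (SD, n = 3 per group), a difference of -0.46 that was 0.32 without control 1. Thus the separated groups of miR-574-5p were not accompanied by separated arm ratios.

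For miR-140 the 3p share was 98.7, 99.3 and 98.9% in control 1, 2 and 3 and 98.8, 97.3 and 98.5% in IS 1, 2 and 3. The exact interval of IS 2 (96.5 to 97.99%) lay below those of all 3 controls, the nearest being control 1 (98.03 to 99.2%), and overlapped those of IS 1 and IS 3. The mean log2 of 5p over 3p was -6.61 ± 0.46 for control against -5.80 ± 0.57 for IS (SD, n = 3 per group). The difference of 0.81, given as a description because miR-140-3p was chosen on this contrast, was 0.50 without IS 2.

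The 5p arm of miR-151 was seen in 3 libraries only, with 10, 6 and 4 counts in control 1, control 3 and IS 2. In control 2 it had 0 of 478 counts, in IS 1 0 of 494 and in IS 3 0 of 254, which by the limit of 3 counts allows shares of up to 0.628, 0.607 and 1.18%. These limits for control 2 and IS 1 lie below the shares measured in control 1 (1.69%), control 3 (1.78%) and IS 2 (2.67%). The exact 95% intervals of the 3p share were 99.23 to 100% in control 2 and 99.26 to 100% in IS 1. They overlapped those of control 3 (96.2 to 99.34%) and IS 2 (93.3 to 99.27%), but not that of control 1 (96.9 to 99.19%). The log2 of 5p over 3p differed by -0.87 between IS and control (-7.99 ± 2.61 against -7.12 ± 2.41, SD, with n = 3 each; exact two-sided permutation p = 0.9), and by 0.11 without IS 1. With 3 libraries against 3 the smallest p this test allows is 0.1.

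miR-28a was near the detection limit in every library. miR-28a-5p had 3, 2 and 5 counts in control 1, 2 and 3 and 1, 4 and 3 in IS 1, 2 and 3, that is 6.70 to 23.9 CPM. miR-28a-3p had 4 counts in each of control 2 and control 3, 11 in IS 2 and 0 in the other libraries, so IS 2 held 11 of its 19 counts. The log2 of 5p over 3p differed by 0.26 between IS and control, far less than the spread (SD of 1.87 for control and 2.14 for IS, with n = 3 each; exact two-sided permutation p = 1), and by -0.63 without IS 3. A difference in miR-28a was not detectable at this depth.

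**Figure D5:**
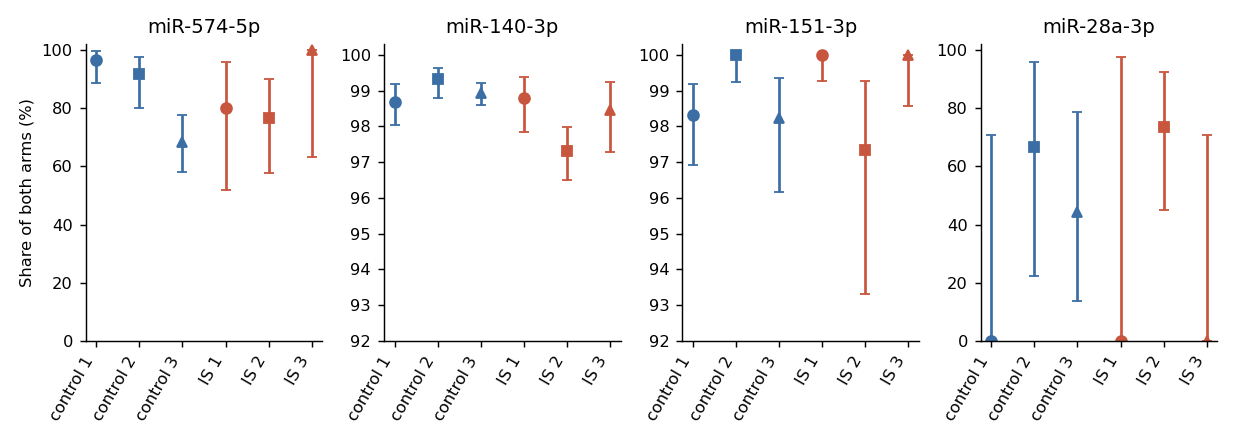
Share (%) of the more counted arm among the counts of both arms of miR-574, miR-140, miR-151 and miR-28a in each library, with exact 95% binomial intervals; the axes run from 0 for miR-574-5p and miR-28a-3p and from 92% for the other two. Control 3 has the lowest share of miR-574-5p (68.5%), and the wide intervals of miR-28a-3p reflect at most 15 counts a library.

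As a wider set, 54 hairpins listed as intronic in other protein-coding genes were looked up, 51 of which lay in an annotated intron of the named host on its strand. All 54 listed hairpins together gave 81 rows of the table, 45 of them tested, of which 0 passed the edgeR threshold upward and 0 downward. The tested rows include miR-7a-5p, miR-191-5p and miR-425-5p, whose hairpins were not among the 51. Among the 45, the log2 fold change lay above 0 in 22 and below in 23, with a median of -0.01 and a range of -1.34 to 1.43, beside a median of 0.02 over all tested miRNAs. The list's 5 most abundant were let-7f-5p, miR-26a-5p, miR-126a-3p from the endothelial gene Egfl7, miR-26b-5p and miR-7a-5p, the last not found in its listed host in this annotation. For miR-126a-3p the levels were 17563 ± 7898 (control) and 14801 ± 10797 CPM (IS), and for miR-26b-5p 6723 ± 2324 and 7606 ± 3033 CPM (SD, n = 3 per group). Some of these mature forms, let-7f-5p and miR-26a-5p among them, are made from 2 hairpins, so their counts cannot be tied to 1 host. In 0 of the 45 were the groups separated in CPM, where 3 of all 206 tested miRNAs (1.46%) were. On the TMM scale 1 of the 45 was separated, miR-7a-5p with IS higher, beside 7 of the 206 (3.4%).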

How the data were processed

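Vesicle RNA was purified with exoRNeasy columns and sequenced as NEBNext small RNA libraries, per the labels' protocols. The submitters' processing notes list CASAVA 1.8 and Bowtie and give neither a role. For the genome build, miRBase release and filters, nothing was given in the sources used here. For each of 620 miRNAs and 6 libraries, the authors deposited a read count and a TPM value, per the file headers. The deposited TPM equals the count over the library total times 1000000 (largest difference 4.8e-10), so it is called CPM here.

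Each library name in the labels gave the group, and no batch or date is labelled. Groups were compared with edgeR's quasi-likelihood test on the deposited counts, using TMM factors, filterByExpr (minimum count 10 and minimum total 15), no covariate and a Benjamini-Hochberg adjusted p under 0.05. It kept 206 miRNAs with 99.7% of the counts. Intervals of counts are exact Poisson and those of shares exact binomial, both at 95%. Arm ratios used a pseudocount of 0.5 counts, and a count of 0 was given a limit of 3 counts. Rows of 50 or more counts in all were called repeated when each library differed by at most 2 counts or 6%. Only the edgeR comparison was tested on simulated counts, which had less spread between libraries than these data.

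The members, lists and tests were chosen with earlier results of these data known. The miRNAs named by rule are the members, their partner arms, miRNAs of the same seed and the 5 most abundant of the wider intronic list. The 3 nearest in pattern to miR-744-5p, miR-574-5p and miR-140-3p are also named by rule. Named besides, with their values known, are some marker miRNAs, some repeated rows, some separated rows and rows of the wider list not found in their host. Alternatives were RLE factors, library totals, other filters, a replicate block, each library left out (scaling refitted or kept), repeated rows left out, DESeq2, limma on log2 of TPM plus 1 or 0.5, other thresholds, other pseudocounts, counts scaled to the smallest total and TMM-scaled CPM. Leaving out each library in the count of separated groups was added after the data were seen. Sequences are those of RefSeq (GRCm38.p6). Software was Python 3.11.15 with scipy 1.17.1 and matplotlib 3.10.9, and R 4.3.3 with DESeq2 1.42.0, limma 3.58.1 and edgeR 4.0.16.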

Additional observations from a re-analysis of the deposited data

How the results depend on the processing

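The count of miRNAs past the adjusted threshold was 0 under every alternative run, and 3 at an unadjusted p of 0.05. Over 21 alternatives each, the log2 fold changes of miR-744-5p, miR-574-5p and miR-140-3p were -2.92 to -0.036, -1.63 to -1.01 and -0.81 to -0.22. As miR-574-5p and miR-140-3p were picked for groups separated in this direction, a sign that stays below 0 was built into the choice. Leaving out each library gave miR-140-5p from -0.11 to 0.65 (-0.062 to 0.66 with the scaling kept), miR-186-5p from -0.13 to 0.73 (-0.080 to 0.70) and miR-151-3p from -0.81 to 0.66 (-0.68 to 0.72). With limma miR-151-3p was -0.036 at either pseudocount. Refitting the filter and scaling without a library moved the median of all tested miRNAs to between -0.27 and 0.05, from 0.02, and the cause of the sign changes was not tested. The wider intronic list had medians of -0.38 to -0.053 without a library (-0.029 to 0.089 with the scaling kept). The arm difference of miR-574 lay between -1.40 and 0.32, of miR-140 between 0.50 and 1.05, of miR-151 between -2.35 and 0.11 and of miR-28a between -0.63 and 1.45. The count of miRNAs with separated groups was 7 on the TMM scale, 10 with no filter and 10 to 24 with a library left out, where fewer libraries have to be in order.

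For same-numbered libraries, deviations from the group mean correlated at 0.31, -0.32 and -0.05 for numbers 1, 2 and 3. Libraries of different numbers gave -0.38 to 0.53. With so few libraries, these values cannot show whether a shared number marks a pair. Under the replicate block miR-744-5p stood at a log2 fold change of -1.03 and miR-574-5p at -1.29, and 0 miRNAs passed. Depth limits the 4 members with 18 to 45 counts in all.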
